A study of Mus musculus with 12 samples.

Results

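Tmem176a (ENSMUSG00000023367) and Tmem176b (ENSMUSG00000029810) are a pair of adjacent mouse genes, and they were followed by genotype, stimulation and mouse in RNA sequencing (RNA-seq) of activated B cells. Both were selected on their gene symbols, after Tmem176b had been seen to be lower with loss of Pdap1, and they are 2 of the 55536 features in the count table. Because that genotype contrast chose the genes, their genotype differences are given as a description, with no test, whereas the differences between stimulations were tested. The stimulation tests share their libraries with that contrast, so their p-values are not free of the choice of genes.

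The cells came from cultures of B lymphocytes, which the study isolated with magnetic beads from spleens of C57BL/6 mice aged 7 to 27 wk. Control mice carried 1 copy of a Cre allele that is active in B cells, and Pdap1-deficient mice (labelled PDAP1 KO) carried the same Cre allele and a conditional Pdap1 allele, so the Cre allele was common to all groups and Pdap1 was left intact in cells without Cre. Each of 3 control and 3 Pdap1-deficient mice gave 1 culture with LPS (5 µg/ml) and IL-4 (5 ng/ml), which drives switching to IgG1, and 1 culture with LPS (5 µg/ml), BAFF (10 ng/ml) and TGFβ (2 ng/ml), which drives switching to IgG2b. All 12 cultures were collected at 48 h. The labels also name the B cell line CH12 for every sample, whereas the study describes primary splenocytes, which was followed here.

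TMEM176A and TMEM176B are small multipass membrane proteins related to the CD20-like MS4A family. They are found on intracellular vesicles, can associate with each other, and have been described as cation channels. In the immune system they are best known from myeloid cells such as dendritic cells and macrophages, where TMEM176B has been linked to antigen presentation and to restraint of the inflammasome.

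Total counts were 4579793 to 69500640 per library. The deepest, the LPS-BAFF-TGFβ culture of control mouse 1, stood apart from the others, none of which exceeded 15869143, and the log2 fold changes of the pair that use it are also given without it. Both libraries of Pdap1-deficient mouse 2 stood apart by their RNA of macrophage markers. The LPS-BAFF-TGFβ library of Pdap1-deficient mouse 1 had 9.90% of its counts in 1 gene, Lars2, a mitochondrial leucyl-tRNA synthetase gene, whereas no gene exceeded 3.38% in any other library. The targeted gene Pdap1, which encodes an RNA-binding protein, had in rising order 91.2, 92.8 and 97.6 CPM (counts scaled to library size) in control and 23.3, 27.2 and 29.9 CPM in Pdap1-deficient LPS-IL-4 cultures. With LPS-BAFF-TGFβ it had 80.1, 100.1 and 198.3 CPM in controls, the highest in the deepest library, and 22.9, 25.9 and 26.4 CPM in Pdap1-deficient cultures. Pdap1 RNA thus did not overlap between genotypes in either stimulation. Of the B cell markers, Pax5, a transcription factor of B cell identity, had 688.6 to 940.3 CPM in the 12 libraries. Others moved with the groups. Cd79b, a chain of the B cell receptor complex, fell with LPS-BAFF-TGFβ in control mice from a mean of 590.1 to 248.6 CPM (edgeR adjusted p = 4.11e-05). Ms4a1, Cd22 and Fcer2a fell as well, whereas Blk, Ebf1 and Cr2 rose, and these 7 markers were also called in Pdap1-deficient mice. Of 10 B cell markers tested, 3 were called higher and 4 lower in each genotype. Of all genes tested, 9.99% were called higher and 9.33% lower in control mice, and 5.57% and 5.89% in Pdap1-deficient mice. Fcer2a, which encodes the IgE receptor CD23, was also lower by genotype with LPS-IL-4, at 404.9 CPM in control and 215.1 CPM in Pdap1-deficient cultures (log2 fold change -0.92, SE 0.11, adjusted p = 0.00214). It was the only call among the 10 markers in that comparison, against 2.79% of all genes higher and 2.12% lower. By genotype with LPS-BAFF-TGFβ 0 of 10 were called, against 0.455% and 0.0071%. In whole cultures such as these, fewer cells that express a gene and less RNA per cell cannot be told apart.

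The genes lie head to head on chromosome 6. In the annotation used (GENCODE M21 on GRCm38), Tmem176b runs on the minus strand from 48833818 to 48841496, with 12 transcripts, and Tmem176a on the plus strand from 48840919 to 48847071, with 7 transcripts. Their outermost transcripts overlap by 578 bp, in which 81 exonic bases are shared, 3.42% of the exon length of Tmem176b and 2.13% of that of Tmem176a. Whether reads were counted by strand is not given in the sources used here. Of 539 annotated genes with at least 95% of their exon bases under exons of the other strand, 2 had 100 or more counts over the 12 libraries (0.371%), against 29.6% of all features.

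In the RefSeq table for GRCm38.p6, Tmem176b has 3 start sites and Tmem176a 2. The closest divergent pair lies 109 bp apart, so that a single short stretch of DNA separates these start sites. In GENCODE M21 it lies within the overlap of both genes, 48840919 to 48841496. It is shown because both genes were lower with Pdap1 loss and these start sites face each other across it. The sequence is chr6:48841374-48841483, plus strand, with the base at each of these start sites in capitals, Tmem176b at the left (transcribed leftward) and Tmem176a at the right.
Tmem176b-Tmem176a interval: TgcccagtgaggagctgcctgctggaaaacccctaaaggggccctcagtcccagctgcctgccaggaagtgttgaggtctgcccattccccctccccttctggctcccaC
The interval has a GC content of 63.6% and holds 0 CpG dinucleotides. The 300-base windows around the 5 start sites, from 250 bases before to 50 bases after each, hold 1 to 5 CpGs, against a median of 7 in 32544 such windows of the genome, and they share bases with each other.
Motifs were searched in these windows on both strands. None of the 5 windows held the AP-1 site TGACTCA, present in 5.19% of all windows, the core of the C/EBP-ATF composite element TGATGNAA (3.91%), the PU.1 site GAGGAAGT (3.11%), the nuclear receptor half-site AGGTCA (16.2%), the CCAAT box (37.4%), the TATA box TATAAA (13.6%) or the GC box GGGCGG (35.9%). This says only that these letters are not in these windows.

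Both genes were expressed in every library. Per kb of exon, the mean level of Tmem176b was 15.2 CPM in LPS-IL-4 control cultures, above 76.1% of the 15794 genes ranked, and 5.34 CPM in LPS-BAFF-TGFβ Pdap1-deficient cultures, above 51.3%. For Tmem176a these levels were 4.60 CPM per kb (above 49.1% of genes) and 1.81 CPM per kb (above 27.1%). Tmem176b was therefore a gene of middle to upper rank and Tmem176a one of middle to lower rank in these cells.

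Tmem176b was lower in Pdap1-deficient than in control cultures of both stimulations. With LPS-IL-4 it had 37.7, 39.1 and 31.2 CPM in control mice 1 to 3, and 17.2, 15.0 and 13.9 CPM in Pdap1-deficient mice 1 to 3. The lowest control was above the highest Pdap1-deficient culture. The group means were 36.0 ± 4.22 and 15.4 ± 1.64 CPM (SD, n = 3 each), a log2 fold change of -1.24 (SE 0.14), or 42.5% of control.

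With LPS-BAFF-TGFβ, Tmem176b had 22.1, 22.1 and 20.2 CPM in control mice and 13.7, 13.8 and 10.5 CPM in Pdap1-deficient mice. Again the groups did not overlap. The means were 21.5 ± 1.11 and 12.7 ± 1.85 CPM (SD, n = 3 each), a log2 fold change of -0.76 (SE 0.17), or 59.1% of control.

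Tmem176a was also lower in the Pdap1-deficient cultures, with a smaller estimated difference in each stimulation. With LPS-IL-4 it had 16.6, 19.6 and 16.4 CPM in control mice and 12.6, 8.49 and 6.86 CPM in Pdap1-deficient mice. Here the Pdap1-deficient mice were spread more widely than for Tmem176b, with mouse 1 highest, but all 3 were below the controls. The means were 17.5 ± 1.76 and 9.31 ± 2.95 CPM (SD, n = 3 each), a log2 fold change of -0.91 (SE 0.21), or 53.0% of control.

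With LPS-BAFF-TGFβ, Tmem176a had 10.3, 8.62 and 9.11 CPM in control mice and 5.80, 6.79 and 8.07 CPM in Pdap1-deficient mice. These groups lay close together but did not overlap. The means were 9.34 ± 0.849 and 6.89 ± 1.14 CPM (SD, n = 3 each), a log2 fold change of -0.43 (SE 0.21), or 74.2% of control. Without the deepest library the genotype log2 fold changes in this stimulation were -0.75 for Tmem176b and -0.36 for Tmem176a, and without Pdap1-deficient mouse 1 they were -0.82 and -0.32.

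**Figure D1:**
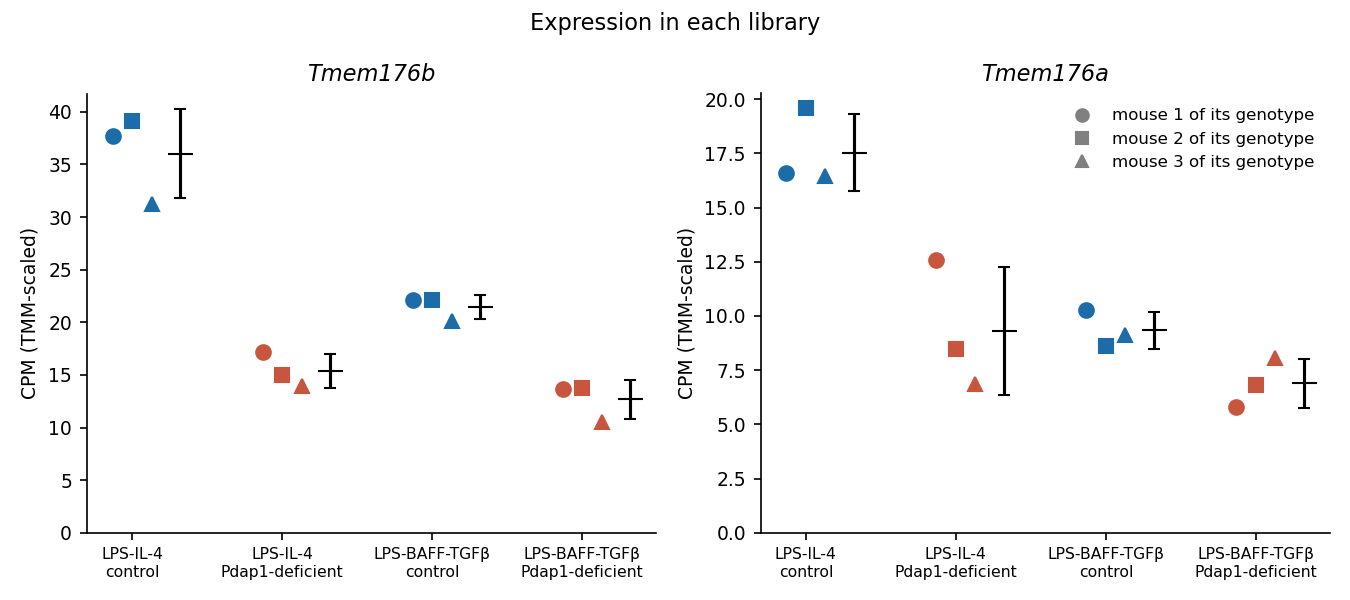
CPM (TMM-scaled) of Tmem176b (left) and Tmem176a (right) in each of 12 libraries by group. Each symbol is a mouse, and the bars give mean ± SD of 3 mice. In each stimulation every Pdap1-deficient value lies below every control value, for Tmem176b 13.9 to 17.2 against 31.2 to 39.1 CPM with LPS-IL-4.

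As background, the quasi-likelihood test of edgeR, at a Benjamini-Hochberg adjusted p under 0.05, called 2.79% of 15074 genes higher and 2.12% lower in Pdap1-deficient LPS-IL-4 cultures, and 31.7% had groups that did not overlap. With LPS-BAFF-TGFβ it called 0.455% of 14079 genes higher and 0.0071% lower, which is 1 gene, and 18.6% had groups that did not overlap. Nothing is read from the members against these shares, since this contrast chose them. The log2 fold changes by genotype differed between the stimulations by 0.46 (SE 0.20) for Tmem176b and 0.47 (SE 0.31) for Tmem176a, smaller in size with LPS-BAFF-TGFβ, and this difference was not tested because both folds belong to the contrast that chose the genes.

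The second question was whether the 2 stimulations differed in expression of the pair within a genotype. In control mice LPS-BAFF-TGFβ cultures had less of both genes. The LPS-IL-4 control libraries also enter the contrast that chose the genes, so the tests below are not independent of that choice. Tmem176b fell by 0.74 on the log2 scale (SE 0.13), to 59.7% of its LPS-IL-4 level, with an adjusted p of 0.00428. Tmem176a fell by 0.90 (SE 0.15), to 53.7%, with an adjusted p of 0.00365. These are from edgeR's quasi-likelihood test over 14882 genes, of which 9.99% were called higher and 9.33% lower and 37.8% did not overlap between stimulations. The groups did not overlap for either gene, for Tmem176b 20.2 to 22.1 CPM with LPS-BAFF-TGFβ against 31.2 to 39.1 CPM with LPS-IL-4. Without the deepest library the log2 fold changes were -0.76 for Tmem176b and -0.97 for Tmem176a (adjusted p = 0.000162 and 0.000118). Leaving out a mouse ended some of these calls. Without control mouse 2 the adjusted p was 0.0745 for Tmem176b (log2 fold change -0.71) and 0.0757 for Tmem176a (-0.77), and without control mouse 3 it was 0.0629 for Tmem176a (-0.94).

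In Pdap1-deficient mice the differences between stimulations did not pass the test. For Tmem176b the log2 fold change was -0.28 (SE 0.17, adjusted p = 0.380), although all 3 LPS-BAFF-TGFβ values (10.5 to 13.8 CPM) lay below all 3 LPS-IL-4 values (13.9 to 17.2 CPM). For Tmem176a it was -0.43 (SE 0.26, adjusted p = 0.376), and the groups overlapped, 5.80 to 8.07 against 6.86 to 12.6 CPM. Of 14617 genes tested 5.57% were called higher and 5.89% lower, 1675 genes in all, and 29% did not overlap. With the mouse as a block, 3854 genes were called, and the adjusted p was 0.169 for Tmem176b and 0.245 for Tmem176a. Tmem176a depended most on mouse 1, without which its log2 fold change was -0.02.

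Cultures with the same mouse number in the labels were taken as cultures of 1 mouse. They allow a comparison in which a genotype difference common to both stimulations cancels. The log2 CPM of Tmem176b was lower with LPS-BAFF-TGFβ in 6 of 6 mice, by differences of -0.77, -0.82 and -0.63 in control mice 1 to 3 and -0.32, -0.12 and -0.40 in Pdap1-deficient mice 1 to 3. Each control mouse had a larger difference than each Pdap1-deficient mouse, so the mean over 6 mice joins unlike genotypes. Whether the genotypes differ in this was not tested, since it belongs to the contrast that chose the genes. The mean was -0.51 ± 0.27 (SD, n = 6), and the exact two-sided sign-flip permutation test gave p = 0.0313, the smallest that 64 sign patterns allow (adjusted p = 0.0938 over 3 tests, which does not pass 0.05).

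For Tmem176a the differences were -0.69, -1.17 and -0.84 in control mice and -1.10, -0.32 and 0.23 in Pdap1-deficient mice. It was thus lower in 5 of 6 mice, the exception being Pdap1-deficient mouse 3. The mean was -0.65 ± 0.53 (SD, n = 6, exact permutation p = 0.0625, adjusted p = 0.0938).

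**Figure D2:**
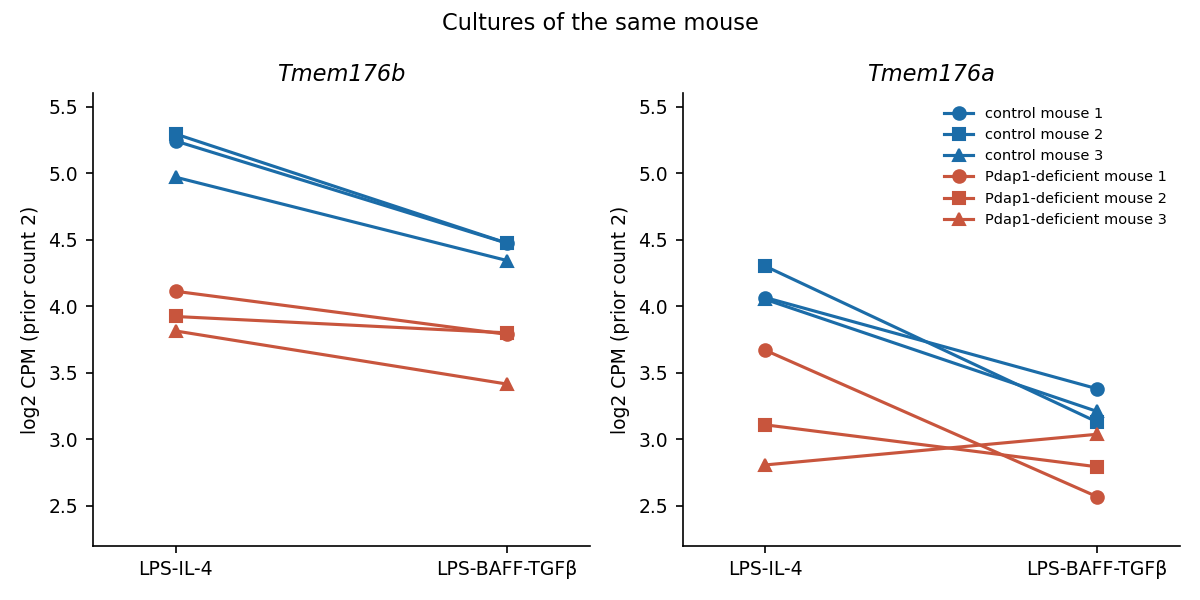
log2 CPM (prior count 2) of Tmem176b (left) and Tmem176a (right) in cultures of either stimulation, with a line for each of 6 mice. All 6 lines fall for Tmem176b, and 5 of 6 for Tmem176a.

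The levels of Tmem176b were ordered LPS-IL-4 control, LPS-BAFF-TGFβ control, LPS-IL-4 Pdap1-deficient and LPS-BAFF-TGFβ Pdap1-deficient, at 36.0, 21.5, 15.4 and 12.7 CPM. No library crossed the range of a neighbouring group, but the last step did not pass its test. For Tmem176a the order was 17.5, 9.34, 9.31 and 6.89 CPM for the same groups. Its 2 middle groups had nearly equal means, and LPS-IL-4 Pdap1-deficient cultures (6.86 to 12.6 CPM) overlapped both groups next to them.

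Tmem176b was the more abundant of the pair in every library. The ratio of Tmem176b to Tmem176a per kb was 3.31 ± 0.310 in LPS-IL-4 control, 2.77 ± 0.540 in LPS-IL-4 Pdap1-deficient, 3.71 ± 0.358 in LPS-BAFF-TGFβ control and 3.05 ± 0.869 in LPS-BAFF-TGFβ Pdap1-deficient cultures (SD, n = 3 each). The ratios spread most among Pdap1-deficient mice. Between cultures of a mouse the log2 ratio differed by 0.14 ± 0.47 (SD, n = 6), higher with LPS-BAFF-TGFβ in 4 of 6 mice (exact permutation p = 0.5, adjusted p = 0.5).

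Counting error limits these ratios. Tmem176b had 67 to 1393 counts and Tmem176a 33 to 648 counts per library, so that counting alone gave an error of 2.68% to 12.2% and of 3.93% to 17.4% of the value. In Pdap1-deficient mouse 1 with LPS-IL-4 there were 1.36 Tmem176b reads per Tmem176a read, with an exact 95% binomial (Clopper-Pearson) interval of 1.11 to 1.68. In Pdap1-deficient mouse 3 with LPS-BAFF-TGFβ there were 1.30 (0.943 to 1.81). These were the lowest ratios. The interval of mouse 1 lies below the control ratios with LPS-IL-4, 1.90 to 2.27. It overlaps the interval of control mouse 3 in that stimulation, 1.59 to 2.28, so counting error does not separate these 2 cultures. The intervals cover counting error only.

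**Figure D3:**
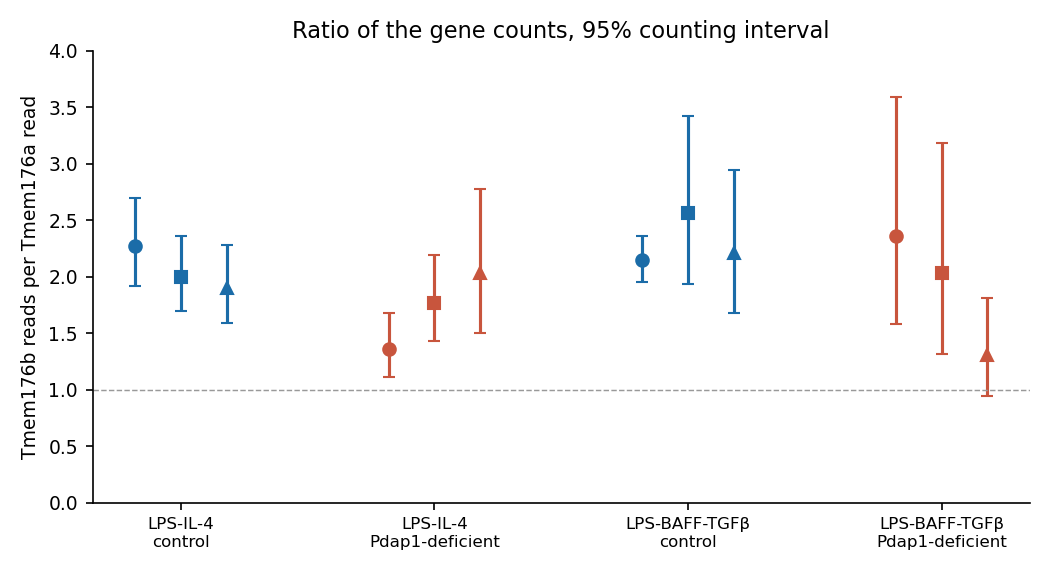
Tmem176b reads per Tmem176a read in each library by group (circle, mouse 1, square, mouse 2, triangle, mouse 3), with 95% exact binomial intervals for counting error. All 12 ratios lie above 1, between 1.30 and 2.56, and the widest intervals are those of Pdap1-deficient mice 1 and 2 with LPS-BAFF-TGFβ, the libraries with the fewest counts of the pair.

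Genes around the pair were examined next, to see whether the differences extended along the chromosome. Within 300 kb the annotation lists 45 other genes, among them the Gimap cluster, GTPases of lymphocytes, and 14 of the 45 had no count. By genotype 0 of 20 tested neighbours were called with LPS-IL-4 and 0 of 18 with LPS-BAFF-TGFβ by edgeR's test. At an unadjusted p under 0.05 there were 3 and 0, and DESeq2's Wald test called 0 in either stimulation. Of all genes, edgeR's test called 2.79% higher and 2.12% lower with LPS-IL-4, and 0.455% and 0.0071% with LPS-BAFF-TGFβ. At these shares, 0 calls among so few neighbours cannot tell them from other genes. The median log2 fold change of the neighbours was 0.10 (LPS-IL-4) and 0.05 (LPS-BAFF-TGFβ), against 0.02 and 0.01 for all genes tested. With LPS-BAFF-TGFβ it was 0.12 without the deepest library and -0.09 without Pdap1-deficient mouse 2, so its sign was not stable. Without Pdap1-deficient mouse 2, whose libraries are described below, Gimap8 and Gimap3 were called higher with LPS-IL-4. Gimap3, the nearest tested neighbour at 63.0 kb, had 241.3 CPM in control and 294.0 CPM in Pdap1-deficient LPS-IL-4 cultures (log2 fold change 0.28, SE 0.10, adjusted p = 0.117).

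By stimulation in control mice, 2 of 19 neighbours were higher and 4 lower with LPS-BAFF-TGFβ, against 9.99% and 9.33% of all genes tested. Those lower were Gimap3, Gimap4, Gimap6 and Igf2bp3, an RNA-binding protein gene, and those higher were Gimap9 and Lrrc61. Gimap3 fell by 0.98 on the log2 scale (SE 0.09, adjusted p = 0.000203) from 241.3 to 122.1 CPM, and Gimap9 rose by 0.65 (SE 0.09, adjusted p = 0.00209). In Pdap1-deficient mice 1 of 19 neighbours was higher, Gimap9, and 4 were lower, again Gimap3, Gimap4, Gimap6 and Igf2bp3, against 5.57% and 5.89% of all genes. There Gimap3 fell by 1.08 (SE 0.13, adjusted p = 0.000493), whereas the pair did not pass the test, and whether the genes differ in this was not tested.

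**Figure D4:**
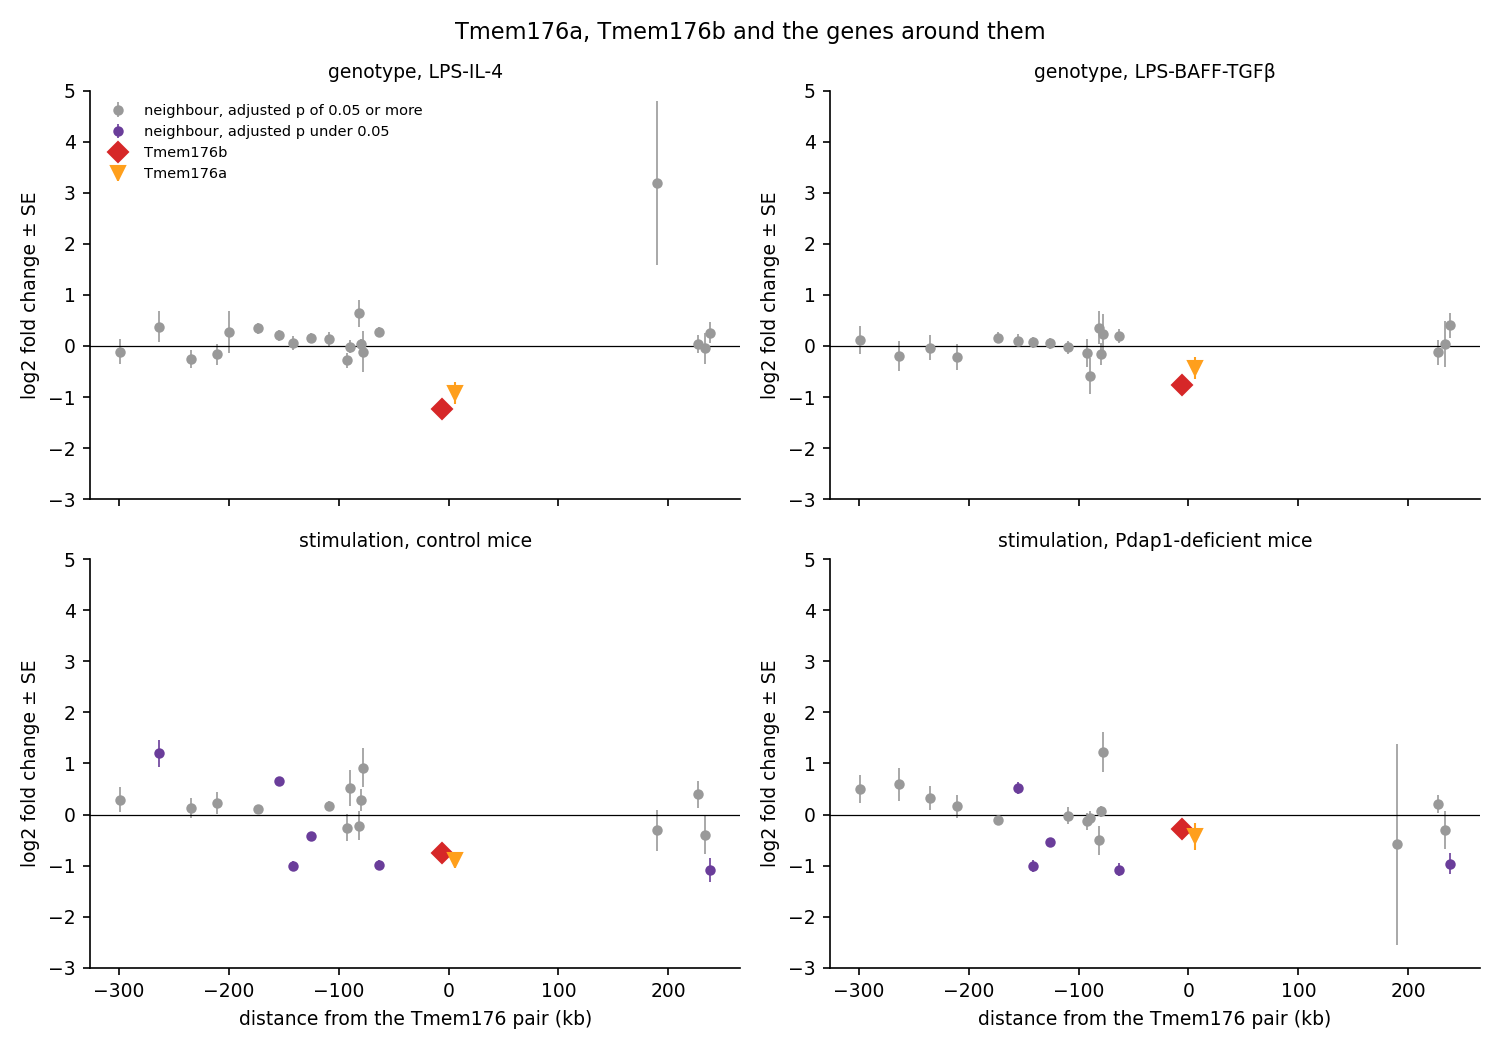
log2 fold change ± SE of Tmem176b, Tmem176a and their tested neighbours against distance from the pair in kb, for Pdap1-deficient minus control (top) and LPS-BAFF-TGFβ minus LPS-IL-4 (bottom). By genotype 0 neighbours pass an adjusted p of 0.05 and most lie near 0, and by stimulation 6 and 5 pass it. The pair is drawn beside 0 kb.

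Because the pair is best known from myeloid cells, markers of other cells were measured in the same libraries. Few markers of each list were tested, so 0 calls by genotype cannot tell them from other genes. Of 12 macrophage and monocyte markers, the summed level was 10.1 to 18.1 CPM in LPS-IL-4 control, 13.7 to 233.1 CPM in LPS-IL-4 Pdap1-deficient, 28.2 to 37.4 CPM in LPS-BAFF-TGFβ control and 24.1 to 451.9 CPM in LPS-BAFF-TGFβ Pdap1-deficient cultures. The highest values were both from Pdap1-deficient mouse 2, in which Lyz2, encoding lysozyme, had 93.6 CPM in the LPS-IL-4 culture and 277.3 CPM in the other, against 0.359 to 5.59 CPM in controls. Pdap1-deficient mouse 3 also exceeded every control of its stimulation, with summed levels of 38.9 and 89.8 CPM and Lyz2 at 9.60 and 40.8 CPM. Pdap1-deficient mouse 1 had the lowest sum of the LPS-BAFF-TGFβ cultures, 24.1 CPM, and its Tmem176b, at 13.7 CPM, was below all controls as in the other mice. By genotype edgeR's test called 0 of 5 tested markers in either stimulation (0 at an unadjusted p under 0.05, and 0 by DESeq2), with median log2 fold changes of 2.78 and 1.47 against 0.02 and 0.01 for all genes. Without Pdap1-deficient mouse 2 these medians were 1.05 and 0.29, and without the deepest library the second was 2.57, with 0 genes called. By stimulation in control mice 2 of 6 tested markers were called higher with LPS-BAFF-TGFβ and 0 lower, against 9.99% and 9.33% of all genes. These were Adgre1, which encodes F4/80, by 1.43 on the log2 scale (SE 0.20, adjusted p = 0.00150), and Cx3cr1, a chemokine receptor gene, by 3.93 (SE 0.35, adjusted p = 0.000141). The others were not called, and Cd68 had a log2 fold change of -0.14 (SE 0.22). In Pdap1-deficient mice 1 of 7 tested was called higher, Cx3cr1, and 0 lower, against 5.57% and 5.89% of all genes. C1qa, C1qb and Fcgr1 were at or near 0 throughout, at most 0.485 CPM. Without Pdap1-deficient mouse 2, the log2 fold changes of Tmem176b by genotype were -1.20 and -0.85 and those of Tmem176a -0.82 and -0.44, as large as with it within the SE.

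Of 8 dendritic cell markers, summed expression was 22.6 to 33.9 CPM with LPS-IL-4 and 75.8 to 143.6 CPM with LPS-BAFF-TGFβ, where the pair was lower. Clec9a, a marker of a dendritic cell subset, had no count in any library, whereas Zbtb46, a transcription factor of the lineage, had 7.04 to 11.7 CPM. Most of the sum with LPS-BAFF-TGFβ was Flt3, a cytokine receptor gene, which rose over LPS-IL-4 in control mice by 2.61 on the log2 scale (SE 0.13, adjusted p = 6.27e-06). Xcr1, a chemokine receptor gene of the same list, rose by 1.73 (SE 0.30, adjusted p = 0.00457) from 0.807 to 2.76 CPM. Thus 2 of 3 tested markers were called higher in control mice and 0 lower, against 9.99% and 9.33% of all genes. The remaining marker tested, Zbtb46, had a log2 fold change of -0.06 (SE 0.16, adjusted p = 0.850). In Pdap1-deficient mice 1 of 3 was called higher, Flt3, and 0 lower, against 5.57% and 5.89%. There Xcr1 had a log2 fold change of 0.96 (SE 0.42, adjusted p = 0.203). By genotype edgeR's test and DESeq2 called 0 of 3 tested dendritic cell markers in either stimulation, and in LPS-BAFF-TGFβ cultures Flt3 had an unadjusted p under 0.05. T cell, natural killer (NK) cell and erythroid markers summed to at most 22.3, 5.33 and 23.5 CPM. Of the 7 T cell markers 0 were tested by edgeR in any comparison of all libraries, so its test says nothing about them. At most 2 NK cell markers and 3 erythroid markers were tested in a comparison, and 0 of these were called. At an unadjusted p under 0.05 only Prf1 and Alas2 by genotype with LPS-IL-4 were reached, and DESeq2 called 1, Cd8a by stimulation in control mice. Without the deepest library the median of the erythroid markers by genotype with LPS-BAFF-TGFβ was 4.39 over 3 tested, against 0.36 over 1 tested with it, and Hbb-bs and Hba-a1, hemoglobin genes, had an unadjusted p under 0.05.

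**Figure D5:**
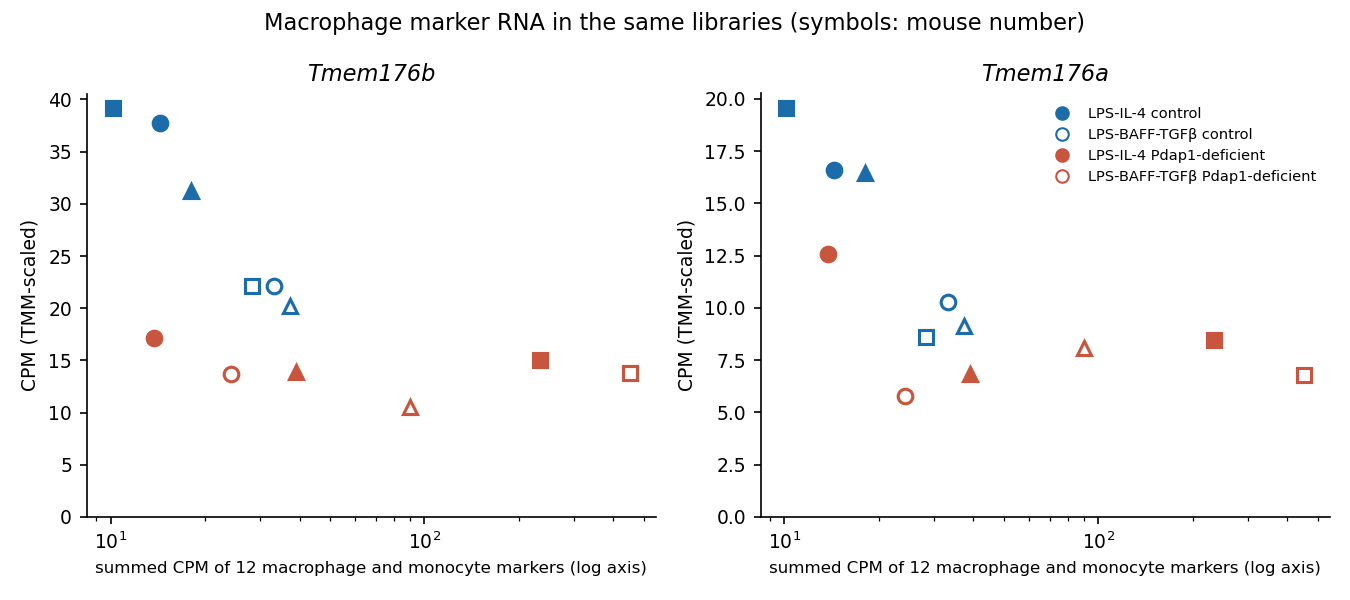
CPM of Tmem176b (left) and Tmem176a (right) against the summed CPM of 12 macrophage and monocyte markers (log axis) in each of 12 libraries, circle, square and triangle for mouse 1, 2 and 3. The 2 libraries of Pdap1-deficient mouse 2, at 233.1 and 451.9 CPM of marker RNA, have 15.0 and 13.8 CPM of Tmem176b, within the 10.5 to 17.2 CPM of the other 4 Pdap1-deficient cultures.

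Gene groups tied to the pair by family or function were counted next. For each of these lists, the shares of all genes called higher and lower by genotype were 2.79% and 2.12% with LPS-IL-4. With LPS-BAFF-TGFβ they were 0.455% and 0.0071%. By stimulation they were 9.99% and 9.33% in control mice, and 5.57% and 5.89% in Pdap1-deficient mice. Of 18 genes of the CD20-like MS4A family, 1 of 7 tested was higher in Pdap1-deficient LPS-IL-4 cultures, Ms4a6c (log2 fold change 0.96, SE 0.22, adjusted p = 0.0477). There 2 had an unadjusted p under 0.05, and DESeq2 called the same 2, Ms4a4a and Ms4a6c. With LPS-BAFF-TGFβ 0 of 6 were called (2 at an unadjusted p under 0.05, and 1, Ms4a6b, by DESeq2). The family medians by genotype were 1.15 and 0.42, against 0.02 and 0.01 for all genes. The macrophage markers were highest in the same genotype, and their part in the MS4A and inflammasome values was not tested. Of the MS4A genes 0 of 7 were called with LPS-IL-4 without Pdap1-deficient mouse 2, when the median was 0.75. With LPS-BAFF-TGFβ the median was 0.20 without that mouse, and without the deepest library edgeR's test called Ms4a6b higher, 1 of 7 tested. With LPS-BAFF-TGFβ in control mice, Ms4a1, which encodes CD20, fell by 0.78 (SE 0.12, adjusted p = 0.00242), whereas Ms4a4c, Ms4a6b, Ms4a6c and Ms4a6d rose, Ms4a6c by 2.42 (SE 0.11, adjusted p = 5.13e-06). In Pdap1-deficient mice Ms4a1 fell and Ms4a6c rose among 8 tested, and without mouse 2 Ms4a6b rose as well.

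Of 13 genes of the inflammasome, 1 of 10 tested was higher by genotype with LPS-IL-4, Casp1, which encodes the inflammatory caspase, from 55.9 to 85.3 CPM (log2 fold change 0.60, SE 0.14, adjusted p = 0.0434). In that comparison 5 had an unadjusted p under 0.05, and DESeq2 called 2, Casp1 and Casp4. With LPS-BAFF-TGFβ 0 of 10 were called (3 at an unadjusted p under 0.05, and 0 by DESeq2), and Casp1 had a log2 fold change of 0.48 (SE 0.16, adjusted p = 0.345). The list medians were 0.31 and 0.17, against 0.02 and 0.01 for all genes. Without Pdap1-deficient mouse 2, Casp1 and Nek7 were called in LPS-IL-4 cultures and 0 genes in the other stimulation, where the median was 0.11. Without the deepest library it was 0.27. By stimulation in control mice the sensors Nlrc4, Aim2 and Nlrp1b and the Nlrp3 partner Nek7 rose with LPS-BAFF-TGFβ and Gsdmd, the pore-forming effector, fell. In Pdap1-deficient mice Nlrc4, Aim2 and Nlrp1b rose, and without mouse 2 Nek7 was also called higher and Gsdmd lower.

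Of 13 genes of MHC class II antigen loading, 1 of 12 tested was called by genotype with LPS-IL-4, H2-Ob, which encodes a chain of the H2-O modulator of peptide loading, higher by 0.47 on the log2 scale (SE 0.11, adjusted p = 0.0404). In that comparison 3 had an unadjusted p under 0.05. DESeq2 called 2, H2-Ob and H2-DMa, the latter lower (edgeR log2 fold change -0.33, SE 0.10). With LPS-BAFF-TGFβ 0 of 12 were called (1 at an unadjusted p under 0.05, and 0 by DESeq2), and the list medians were -0.08 and -0.13, against 0.02 and 0.01 for all genes. Without Pdap1-deficient mouse 2, H2-DMa and H2-DMb2, of the peptide-exchange factor H2-M, were called lower and H2-Ob higher with LPS-IL-4. By stimulation in control mice 7 of 12 were lower with LPS-BAFF-TGFβ, as was the pair, and H2-Ob was higher, against 9.33% lower and 9.99% higher of all genes, with a median of -0.49 against 0.03 for all genes. H2-Aa, an MHC class II chain, fell by 0.54 (SE 0.08, adjusted p = 0.00229) and Cd74, the invariant chain, by 0.45 (SE 0.10, adjusted p = 0.0129). In Pdap1-deficient mice 8 of 12 were lower and 0 higher, against 5.89% and 5.57% of all genes, with H2-Aa down by 0.51 (SE 0.10, adjusted p = 0.0106). Without the deepest library, 8 of these 12 genes, 3 of 10 inflammasome genes and 5 of 19 neighbours were called lower in control mice, and the counts called higher were as with it. Of all 15299 genes tested in that fit, 2434 were called lower and 2424 higher.

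Finally, the genes whose level over the 12 libraries most resembled that of Tmem176b were listed by Pearson's r of log2 CPM among 15793 genes. The points share mice, genotype and depth, so r is a description. The 10 closest were Ap2a2, an endocytic adaptor subunit (r = 0.955), Pdxk, pyridoxal kinase (0.952), Cad, the pyrimidine synthesis enzyme (0.933), Fpgs, folylpolyglutamate synthase (0.932), Upf1, an RNA helicase of nonsense-mediated decay (0.931), Wdr4, a tRNA methylation subunit (0.926), Pola2, a DNA polymerase α subunit (0.922), Hyal2, a hyaluronidase (0.922), Max, the Myc partner (0.920), and Alg1, a glycosylation enzyme (0.916). They lie on 10 different chromosomes. Tmem176a ranked 47 (r = 0.878).

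As an example, Pdxk had 20.9 ± 1.56 and 11.9 ± 0.514 CPM in control and Pdap1-deficient LPS-IL-4 cultures and 16.0 ± 1.23 and 10.7 ± 1.15 CPM with LPS-BAFF-TGFβ (SD, n = 3 each). The order of its 4 groups was that of Tmem176b, as in each of the 10 closest genes, which were picked for this likeness. Of the 10 closest genes, 6 were among the 10 closest without the deepest library, where Tmem176a ranked 108. With group means removed, so that only differences between mice of a group remained, r between Tmem176b and Tmem176a was 0.229 (rank 3411) and 0 of the 10 closest genes were shared. The r over 12 libraries takes in the genotype contrast that chose the genes, so the likeness of the pair between groups is partly set by that choice. It was not complete. LPS-BAFF-TGFβ control and LPS-IL-4 Pdap1-deficient cultures had means of 21.5 and 15.4 CPM of Tmem176b, but 9.34 and 9.31 CPM of Tmem176a. Between mice within a group little co-variation was measured at these counts.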

How the data were processed

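RNA-seq of 12 cultures of splenic B cells (4 groups of 3 mice) was analysed. The authors deposited raw read counts per Ensembl gene. Per the submitters' processing notes and the study's methods, reads were trimmed with Trim Galore 0.6.1, mapped to GRCm38 with STAR 2.6 and counted with HTSeq 0.9.1. Ribosomal RNA was depleted, and the library kit is a stranded mRNA kit per the labels and a stranded total RNA kit per the study. The annotation release and strand setting of the counting are not given in the sources used here. A second table of normalized counts was not used.

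Symbols and positions came from GENCODE M21, which named all 55536 features. CPM used TMM-scaled totals over 12 libraries, and log2 CPM a prior count of 2. Each comparison was fitted on its 6 libraries with edgeR 4.0.16 in R 4.3.3 (filterByExpr, TMM, robust quasi-likelihood F test, Benjamini-Hochberg adjustment over all genes tested, threshold 0.05). Within-mouse differences were tested with SciPy 1.17.1. The labels give the same mouse numbers in both stimulations, and the study used 3 mice per genotype. For stimulation the numbers were therefore taken to pair the cultures. Between cultures so paired, the correlation of deviations from group means was -0.18, 0.34 and -0.02 in control mice 1 to 3. It was 0.58, 0.62 and 0.29 in Pdap1-deficient mice 1 to 3. The pairing of the control cultures thus rests on the labels. Between genotypes the numbers name different mice (correlation of deviations -0.21 to 0.10) and do not pair the cultures. The alternatives were DESeq2 1.42.0, its size factors, no filter, at least 10 counts in every library, the replicate block, all 12 libraries in one fit and each mouse left out. Leaving out the deepest library, and lists without Pdap1-deficient mouse 2, were chosen after seeing the data. Steps were tested on simulated data, and no library was a copy of another.

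Total counts per library were 4579793 to 69500640, and p-values rest on 3 mice per group. The members and the 10 gene lists (97 symbols, all matched) were chosen with earlier results of these data known. Some list members, and summed values that include them, are not reported here. Named genes are the members, Pdap1, tested genes within 300 kb, list members, and the 10 genes most like Tmem176b by Pearson's r.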

Additional observations from a re-analysis of the deposited data

How the results depend on the processing

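The genotype log2 fold changes of the pair kept their direction and moved by less than the spread between mice in 48 of 48 alternatives, from -1.34 to -1.18 (LPS-IL-4) and -0.85 to -0.64 (LPS-BAFF-TGFβ) for Tmem176b, and from -1.21 to -0.76 and -0.57 to -0.32 for Tmem176a. For stimulation in control mice, 8 of 10 alternatives passed the threshold for Tmem176a and 9 of 10 for Tmem176b. Leaving out each mouse gave log2 fold changes of -1.005 to -0.77 and -0.81 to -0.71, with adjusted p above 0.05 only for the fits named above. In Pdap1-deficient mice 0 of 9 alternatives passed for either gene, as did 0 of 8 for each within-mouse difference, of which the 6 that leave out a mouse could not pass, since 5 mice allow no p under 0.0625. With the mouse as a replicate block the values were -0.90 (adjusted p = 0.0197) for Tmem176a and -0.74 (adjusted p = 0.0128) for Tmem176b in control mice, -0.40 and -0.28 in Pdap1-deficient mice, and the block changed no other call of the pair. By genotype the replicate block gave -0.96 and -0.44 for Tmem176a and -1.24 and -0.76 for Tmem176b.

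Counts of genes called moved more. For genotype with LPS-IL-4 (741 genes), DESeq2 called 1217, no filter 1694, and leaving out each mouse 69 to 1759. With LPS-BAFF-TGFβ (65 genes), DESeq2 called 172, no filter 257, one fit of all 12 libraries 133, and leaving out each mouse 19 to 116. For stimulation in control mice (2874 genes), leaving out each mouse gave 921 to 4009 and leaving out the deepest library 4858. In Pdap1-deficient mice (1675 genes) the replicate block called 3854 and leaving out each mouse 346 to 2398. Among genes most like Tmem176b, Tmem176a ranked 47, 3411 with group means removed and 108 without the deepest library. The cause of these shifts was not tested. Tmem176a had as few as 33 counts in a library, which limits its ratios and its differences between mice.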
